A study of Mus musculus with 9 samples.

Results

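Hspa5, Hsp90b1, Dnajb9, Xbp1, Atf6, Sdf2l1, Hyou1, Pdia4, Herpud1 and Creb3l2 are 10 genes of protein folding in the endoplasmic reticulum (ER) and of the unfolded protein response. They were chosen by name for these roles, with earlier results of these data known. All 10 were found among the 55471 genes listed and among the 15362 that had enough counts to be tested. With OSCAR overexpression, 8 of the 10 fell, beside 32.2% of all genes tested, Atf6 rose, beside 32.7%, and Dnajb9 did not pass the test. With 5-ASA added, the changes split: Hspa5, Hsp90b1 and Sdf2l1, which had fallen with OSCAR, were lower again, Dnajb9 was lower by a call that several alternative fits lost, and Herpud1 was higher. These 4 lower genes stand beside 7.38% of all genes and Herpud1 beside 10.4%, and the other 5 did not pass the test.

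Chondrocytes secrete large amounts of collagen and proteoglycan, all of which are folded in the ER before export. When unfolded protein accumulates there, 3 membrane sensors respond: Ire1 (Ern1), which splices the Xbp1 transcript, Perk (Eif2ak3), which slows translation and raises Atf4, and Atf6, which is cut by proteases in the Golgi to release a transcription factor. These factors raise ER chaperones, disulfide enzymes and the machinery of ER-associated degradation (ERAD), and Creb3l2, a relative of Atf6, is known in cartilage for driving the export machinery that collagen needs.

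RNA was sequenced from 9 cultures of primary chondrocytes isolated from the knee joint cartilage (femur and tibia) of wild-type mice at postnatal day 5, in 3 groups of 3. The Control cultures received a control adenovirus, the Ad-OSCAR cultures an adenovirus carrying OSCAR, a collagen receptor, and the Ad-OSCAR + 5-ASA treatment cultures the same virus followed by 5-aminosalicylic acid, the anti-inflammatory drug. By the labels, cells grew for 3 days, were infected for 2 h at 400 MOI (multiplicity of infection, infectious particles per cell) and were kept for 36 h before the drug, while the methods of the study state a different virus dose and different times. All plates were coated with a collagen peptide that OSCAR binds, no IL-1β was added, and no uninfected cells and no cells given 5-ASA without OSCAR were among the groups. The study's general statistics statement calls its n biologically independent samples, mice or specimens, but neither the labels nor the sequencing methods say whether the 3 cultures of a group came from different animals or preparations. If they did not, p-values measure only the spread between these cultures, which may be technical.

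Total counts ran from 19733431 to 28192725 per culture. Oscar had 3 to 4 counts in Control, 173445 to 187278 in Ad-OSCAR and 80766 to 94199 in 5-ASA-treated cultures. The treated cultures thus held less Oscar RNA than the untreated ones, and the part of this in the 5-ASA comparison was not tested. Summed over 8 chondrocyte markers, levels ran from 37859 to 43468 CPM (library-scaled read count after TMM normalization) in Control, from 2366 to 2696 CPM in Ad-OSCAR and from 2827 to 3280 CPM with 5-ASA. Most of this sum was Col2a1, at a mean of 33857 CPM in Control and 2159 CPM in Ad-OSCAR. All 8 were lower in Ad-OSCAR than in Control, from 2.13-fold for Hapln1 to 83.2-fold for Acan. The 6 macrophage markers summed to 5.59 to 7.61 CPM in Control, 13.1 to 14.0 CPM in Ad-OSCAR and 11.7 to 11.9 CPM with 5-ASA, mostly Cd68 and Lyz2, with the defining markers Ptprc, Adgre1 and Itgam near 0. Endothelial markers reached at most 2.80 CPM, muscle markers 1.68 CPM and erythroid markers 0.123 CPM, with Hbb-bs at 0 in every culture.

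Upstream sequences are shown for Hspa5, Hsp90b1 and Herpud1, because they carry exact copies of ER stress elements and because their transcripts moved apart with 5-ASA. RefSeq's promoter windows (GRCm38.p6, 250 bases before to 50 after the start site) matched 8 of the 10 genes, all but Atf6 and Hyou1. Both strands were searched for the ER stress element ERSE (CCAAT, 9 bases of any kind, CCACG), for ERSE-II (ATTGG, 1 base of any kind, CCACG), for the unfolded protein response element UPRE (TGACG directly followed by TGG) and for CCACG alone, which lies inside ERSE and ERSE-II and, on the other strand, inside UPRE. The sequences run 5′ to 3′ along the gene, with ERSE or ERSE-II in capitals. GENCODE M21 starts Hspa5 120 bases and Hsp90b1 65 bases before RefSeq does, so for Hsp90b1 only the bases before both starts are given, and for Hspa5 only 30 bases around its element, which lies before the RefSeq start and inside the first exon of GENCODE. For Herpud1 the 250 bases before the RefSeq start are given.
Hspa5 (chr2:34772020-34772049, plus strand): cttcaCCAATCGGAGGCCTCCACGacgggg
Hsp90b1 (chr10:86705510-86705694, minus strand): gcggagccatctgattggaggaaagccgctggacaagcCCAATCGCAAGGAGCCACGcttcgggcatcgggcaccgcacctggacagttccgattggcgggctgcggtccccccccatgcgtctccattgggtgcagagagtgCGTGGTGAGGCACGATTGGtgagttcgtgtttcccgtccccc
Herpud1 (chr8:94386179-94386428, plus strand): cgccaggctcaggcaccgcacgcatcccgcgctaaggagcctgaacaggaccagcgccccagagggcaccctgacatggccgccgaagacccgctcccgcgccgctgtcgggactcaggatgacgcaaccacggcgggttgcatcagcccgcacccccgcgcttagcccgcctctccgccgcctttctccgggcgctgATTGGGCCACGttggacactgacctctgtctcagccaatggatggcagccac
ERSE was found in Hspa5, at bases -65 to -47 with the start site numbered 0, and in Hsp90b1 at -212 to -194 and, on the other strand, at -107 to -89, so in 2 of the 8 promoters against 0.119% of all 32851. ERSE-II was found in Herpud1 at -52 to -42, against 0.0365% of all promoters. No member held an exact UPRE, which 0.676% of all promoters held, and CCACG alone was in 6 of the 8 against 32.8% of all. A match is a description of the letters and not a bound site, and near matches were not counted. The motifs were searched because they are known from genes of this response. Matches among the members were therefore likely in advance, and the shares over all promoters are no test of the members.

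In Ad-OSCAR against Control, the quasi-likelihood F test of edgeR, Benjamini-Hochberg adjusted over all 15362 genes, called 8 members lower and 1 higher (a call is an adjusted p below 0.05). Of all genes, 32.2% were called lower and 32.7% higher, so about as many genes rose as fell, and the members' median log2 fold change was -0.39, beside 0.02 over all genes. The folds were small: the largest was 1.70 for Creb3l2. By the thresholds of the study for OSCAR (a log2 fold change beyond 1.5 either way and an adjusted p below 0.05), which 9.96% of genes passed, 0 members passed. In RNA from whole cultures, fewer cells of a kind and less RNA per cell cannot be told apart.

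**Figure D1:**
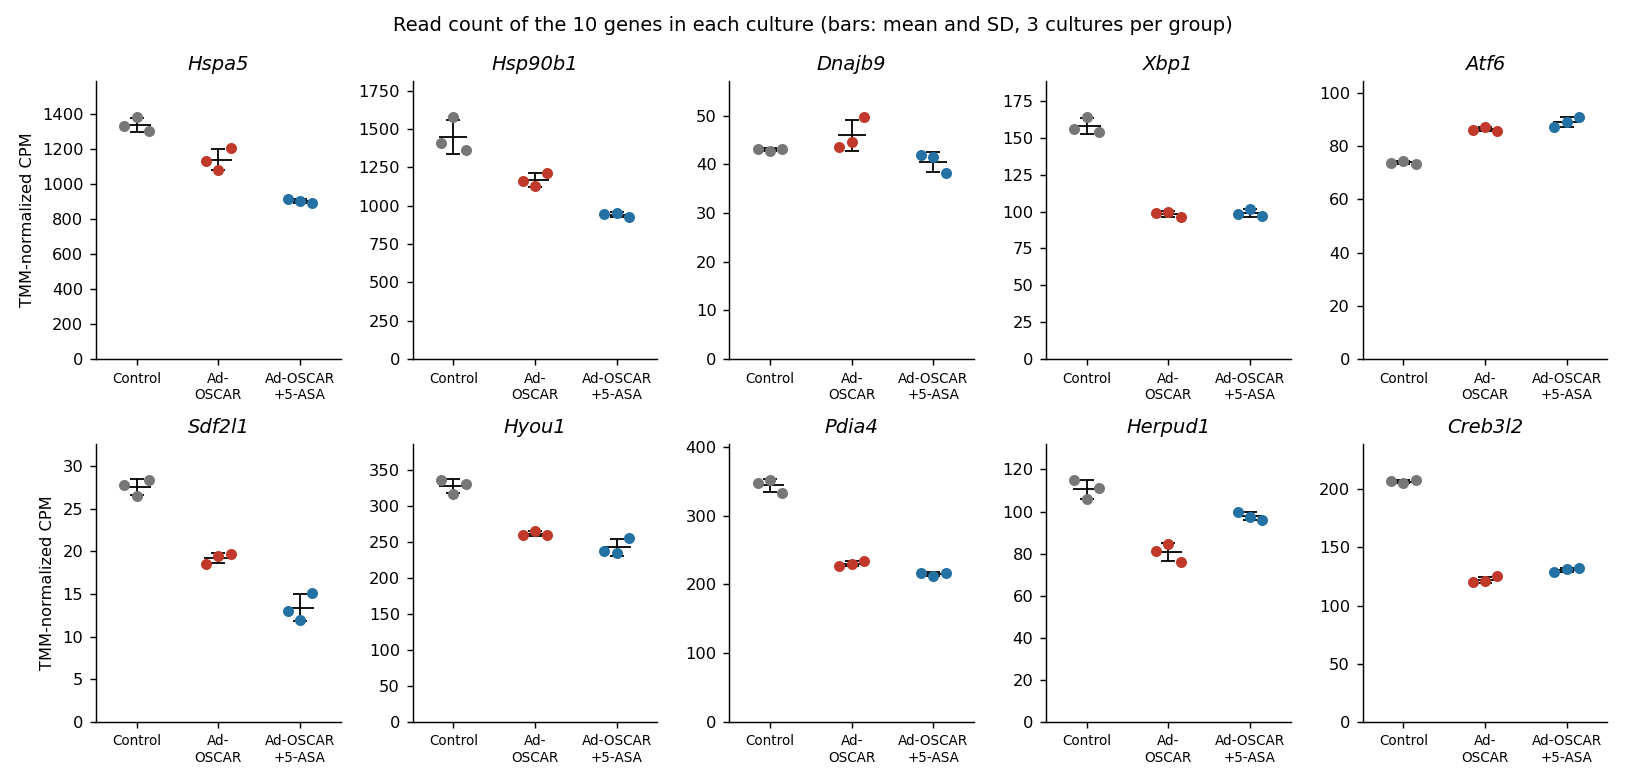
Read count of each gene in each culture, as TMM-normalized CPM on axes that start at 0, with points for the 3 cultures of each group and bars for the mean and SD. Hspa5, Hsp90b1 and Sdf2l1 step down from Control to Ad-OSCAR and again with 5-ASA, Xbp1, Pdia4, Hyou1 and Creb3l2 fall mainly in the first step, Herpud1 falls and then lies between the other groups, and Atf6 is higher in both OSCAR-expressing groups.

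Among the regulators, Creb3l2 (chr6:37327255-37442146, minus strand), the ER-anchored factor of the collagen export program, changed most. Its level was 207, 205 and 208 CPM in the Control cultures, 120, 121 and 125 CPM in Ad-OSCAR and 129, 131 and 132 CPM with 5-ASA. The Control cultures all lay above both OSCAR-expressing groups, and the 5-ASA-treated cultures lay just above the untreated ones without overlap. The log2 fold change was -0.76 with OSCAR (SE 0.04, adjusted p = 1.42e-11) and 0.10 with 5-ASA (SE 0.04, adjusted p = 0.110), which did not pass. Xbp1 (chr11:5520659-5525893, plus strand), the transcript that Ire1 splices, read 156, 164 and 154 CPM in Control, 99.1, 100 and 96.1 CPM in Ad-OSCAR and 98.1, 102 and 97.1 CPM with 5-ASA. Both OSCAR-expressing groups lay below Control and overlapped each other. Xbp1 fell by 0.68 on the log2 scale with OSCAR (SE 0.05, adjusted p = 2.28e-10), and its value with 5-ASA was 0.01 (SE 0.05, adjusted p = 0.952). Counts per gene do not separate spliced from unspliced Xbp1, so the active form was not measured.

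Atf6 (chr1:170704674-170867771, minus strand) was the member that rose. It read 73.8, 74.6 and 73.5 CPM in Control, 86.3, 87.3 and 85.8 CPM in Ad-OSCAR and 87.3, 89.0 and 90.9 CPM with 5-ASA. Every OSCAR-expressing culture lay above every Control culture, and the treated and untreated Ad-OSCAR cultures overlapped near 87.3 CPM. The log2 fold change was 0.23 with OSCAR (SE 0.04, adjusted p = 0.000179) and 0.04 with 5-ASA (SE 0.04, adjusted p = 0.554). Cleavage of the Atf6 protein is not seen in RNA.

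Among the chaperones of the ER lumen, Hspa5 and Hsp90b1 fell with OSCAR and again with 5-ASA. Hspa5 (BiP; chr2:34771970-34777547, plus strand), the Hsp70 of the ER, which also holds the sensors inactive, read 1336, 1384 and 1306 CPM in Control, 1132, 1085 and 1209 CPM in Ad-OSCAR and 918, 903 and 891 CPM with 5-ASA. The 3 groups formed separate steps in that order. Its log2 fold change was -0.23 with OSCAR (SE 0.04, adjusted p = 0.000145) and -0.34 with 5-ASA (SE 0.04, adjusted p = 2.97e-05). Hsp90b1 (Grp94; chr10:86690209-86705509, minus strand), the Hsp90 of the ER, read 1409, 1576 and 1361 CPM, then 1160, 1126 and 1214 CPM, then 944, 954 and 925 CPM in the same order of groups. These steps did not overlap either, with a spread of 113 CPM (SD, n = 3) in Control and 14.6 CPM (SD, n = 3) with 5-ASA. Both changes of Hsp90b1 came to -0.31 on the log2 scale (SE 0.05 each), with adjusted p = 2.42e-05 for OSCAR and 0.000231 for 5-ASA. Hsp90b1 overlaps 1810014B01Rik on the other strand, at a mean of 9.79 CPM, and how strand was treated in counting is not given in the sources used here.

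Hyou1 (Grp170; chr9:44379490-44392369, plus strand), which reloads Hspa5 with nucleotide, read 336, 317 and 330 CPM in Control, 259, 265 and 259 CPM in Ad-OSCAR and 238, 234 and 256 CPM with 5-ASA. Control lay clearly above, and the highest treated culture came within a few CPM of the lowest untreated one. It fell by 0.33 on the log2 scale with OSCAR (SE 0.05, adjusted p = 4.71e-06), and its value with 5-ASA was -0.11 (SE 0.05, adjusted p = 0.121). That value passed the test on log2 TPM (-0.24, adjusted p = 0.0456 with limma) and without treated replicate 3 (-0.15, adjusted p = 0.0331). Pdia4 (Erp72; chr6:47796141-47813430, minus strand), a protein disulfide isomerase, read 347, 352 and 333 CPM, then 227, 229 and 234 CPM, then 216, 212 and 217 CPM. The gap lay between Control and the OSCAR-expressing groups, which were close to each other without overlap. Its log2 fold change was -0.58 with OSCAR (SE 0.04, adjusted p = 6.25e-10) and -0.09 with 5-ASA (SE 0.04, adjusted p = 0.132).

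Of the cochaperones of Hspa5, Sdf2l1 fell in both comparisons and Dnajb9 with 5-ASA only in some fits. Sdf2l1 (chr16:17130138-17132383, minus strand), which works in a complex with the ER J-protein Dnajb11, read 27.8, 26.5 and 28.4 CPM in Control, 18.5, 19.5 and 19.7 CPM in Ad-OSCAR and 13.0, 12.0 and 15.1 CPM with 5-ASA. Its groups stepped down without overlap. Sdf2l1 had the largest fall of the 10 with 5-ASA, at -0.53 (log2, SE 0.08, adjusted p = 0.000111), after -0.52 with OSCAR (SE 0.07, adjusted p = 6.42e-06). Dnajb9 (ERdj4; chr12:44205559-44210326, minus strand), a J-protein that brings Hspa5 to Ire1, read 43.2, 42.7 and 43.2 CPM in Control, 43.6, 44.6 and 49.7 CPM in Ad-OSCAR and 42.0, 41.5 and 38.2 CPM with 5-ASA. Ad-OSCAR replicate 3 stood above the other cultures and treated replicate 3 below them. The log2 fold change of Dnajb9 was 0.09 with OSCAR (SE 0.06, adjusted p = 0.154) and -0.18 with 5-ASA (SE 0.06, adjusted p = 0.0335). Its 5-ASA call rests on those cultures: without Ad-OSCAR replicate 3 the value was -0.12 (adjusted p = 0.169) and without treated replicate 3 it was -0.14 (adjusted p = 0.121), and it missed the threshold with DESeq2 (adjusted p = 0.0517) and with only the 2 groups fitted (adjusted p = 0.0502).

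Herpud1 (Herp; chr8:94386438-94395377, plus strand), a membrane protein that organizes the ERAD complex, was the member called higher in treated than in untreated cultures. It read 115, 106 and 111 CPM in Control, 81.4, 84.6 and 75.9 CPM in Ad-OSCAR and 99.8, 97.3 and 96.2 CPM with 5-ASA. The treated cultures lay between the other groups, apart from both. Its log2 fold change was -0.46 with OSCAR (SE 0.05, adjusted p = 3.19e-07) and 0.28 with 5-ASA (SE 0.05, adjusted p = 0.000762). On log2 TPM with limma the 5-ASA value was 0.19 and did not pass (adjusted p = 0.0836), where the median of all genes lay at -0.08. Set against Hspa5 within each culture, so that scaling cancels, Herpud1 amounted to 8.59, 7.62 and 8.53 CPM per 100 CPM of Hspa5 in Control, to 7.19, 7.80 and 6.28 in Ad-OSCAR and to 10.9, 10.8 and 10.8 with 5-ASA. This ratio, chosen after the values were seen, was highest in all 3 treated cultures, with a log2 difference of 0.62 from untreated cells (two-sided exact permutation p = 0.1, the smallest that 3 against 3 can give). Its parts were already called in opposite directions in this comparison, so this p-value is no separate support. Between Ad-OSCAR and Control the ratio overlapped (log2 difference -0.22, exact permutation p = 0.200).

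**Figure D2:**
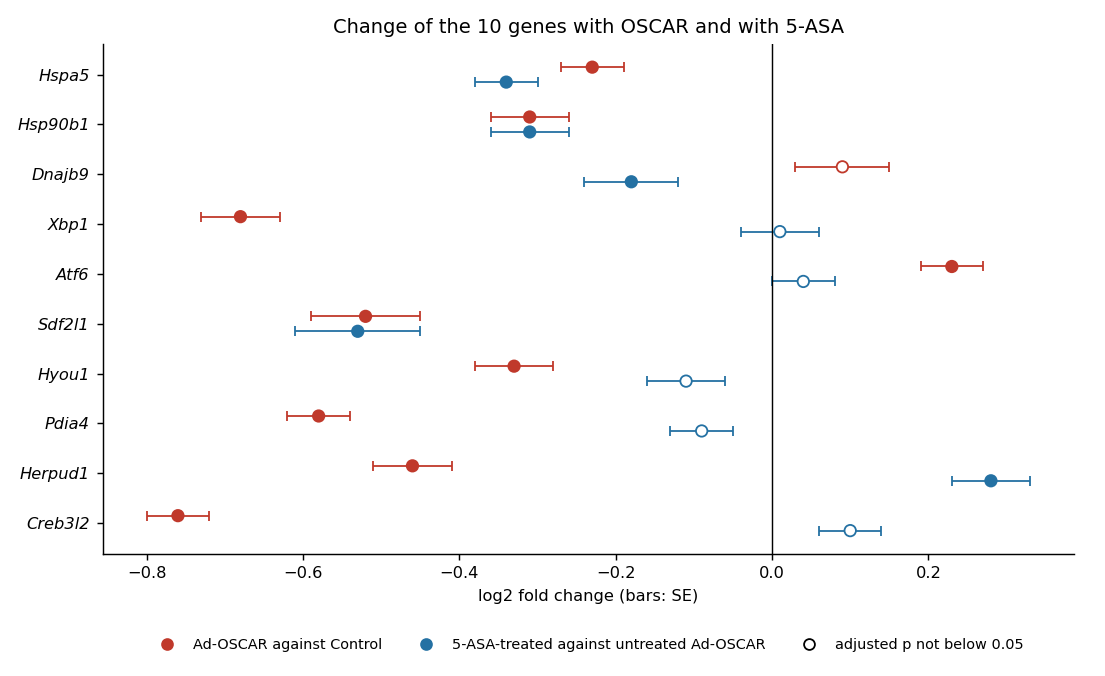
Log2 fold change of each gene (points, with SE bars) in Ad-OSCAR against Control (red) and in 5-ASA-treated against untreated Ad-OSCAR (blue), with open points where the adjusted p was not below 0.05. Both comparisons use the Ad-OSCAR cultures, in opposite roles. Blue points lie left of 0 for Hspa5, Hsp90b1, Sdf2l1 and Dnajb9 and right of 0 for Herpud1 at 0.28.

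In 5-ASA-treated against untreated Ad-OSCAR, 4 of the 10 were thus called lower, beside 7.38% of all genes, and 1 was called higher, beside 10.4% of all genes. The members' median was -0.10 (log2), beside 0.00 over all genes. The study set its 5-ASA thresholds (a fold beyond 1.5 and an unadjusted p below 0.05) for treated cells against Control. Applied here to treated against untreated cells, where 4.15% of genes passed them, 0 members passed. The comparison shares the Ad-OSCAR cultures with the one above, so a culture that is high there moves both values in opposite directions.

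Treated cultures were also compared with Control, and the difference between treated and untreated cells is the 5-ASA test given above, which Hspa5, Hsp90b1 and Sdf2l1 passed. The log2 fold change was -0.57 for Hspa5 (SE 0.04, adjusted p = 2.25e-09), against -0.23 without the drug, -0.62 for Hsp90b1 against -0.31, and -1.04 for Sdf2l1 (SE 0.08, adjusted p = 1.21e-09) against -0.52. Among members whose 5-ASA test did not pass, Hyou1 read -0.43 against -0.33 without the drug, Pdia4 -0.68 against -0.58, Xbp1 -0.67 against -0.68, Creb3l2 -0.66 against -0.76 and Atf6 0.27 against 0.23. Herpud1, which passed, read -0.18 (SE 0.05, adjusted p = 0.00552) against -0.46 without the drug. In all, 8 members were lower, beside 31.8% of all genes, Atf6 was higher, beside 31.4%, and Dnajb9 at -0.09 was not called (adjusted p = 0.209). By the study's 5-ASA thresholds, which it applied to this comparison, 5 members were lower, beside 15.3% of all genes.

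Per unit of transcript length (TPM, transcript level scaled to length and library), the members' levels in Control ran over a wide range. Hspa5 at 1116 ± 31.9 and Hsp90b1 at 957 ± 80.2 TPM (SD, n = 3) led, followed by Pdia4 (247 to 265 TPM), Xbp1 (152 to 162 TPM), Hyou1 (128 to 137 TPM) and Herpud1 (103 to 118 TPM), with no overlap between neighbours in this order. Creb3l2 (49.6 to 50.6 TPM) and Sdf2l1 (47.8 to 50.9 TPM) could not be ordered, and Dnajb9 (31.2 to 33.2 TPM) and Atf6 (17.1 to 17.5 TPM) were lowest. With 5-ASA, Hspa5 (690 to 722 TPM) still lay above Hsp90b1 (587 to 601 TPM), while Sdf2l1 (20.4 to 26.6 TPM) lay below Dnajb9 (27.0 to 28.8 TPM) and overlapped Atf6 (19.2 to 20.6 TPM).

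The rest of the pathway was read from 8 lists of 102 genes, all tested and also chosen with earlier results of these data known. With OSCAR, 77 of the 102 were lower and 11 higher, with a median of -0.38, beside 32.2% and 32.7% of all genes. With 5-ASA, 15 were lower and 17 higher, with a median of -0.01, beside 7.38% and 10.4%. Without Ad-OSCAR replicate 1 the 17 became 11.

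Further ER chaperones fell almost throughout with OSCAR: 14 of 15 were lower, beside 32.2% of all genes, with a median of -0.32. Lman1, the cargo receptor ERGIC-53, fell by 0.92 on the log2 scale (SE 0.04, adjusted p = 7.49e-13) and Dnajc3, which inhibits eIF2α kinases, by 0.77 (SE 0.05, adjusted p = 5.37e-11). The exception was Sdf2, the constitutive relative of Sdf2l1, at 0.03 (adjusted p = 0.634). With 5-ASA 4 of the 15 were lower, namely the lectin chaperones Calr (-0.31, adjusted p = 4.63e-05) and Canx (-0.26, adjusted p = 0.000719) and the ER-resident factors Manf (-0.29, adjusted p = 0.00059) and Creld2 (-0.38, adjusted p = 4.63e-05), and 2 were higher, Sil1 (0.21) and Lman1 (0.16). Of these, Calr, Canx and Manf are named because the count is small, after their values were seen. Over all genes, 7.38% were lower and 10.4% higher with 5-ASA.

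Disulfide enzymes fell in 9 of 10 cases with OSCAR (median -0.51), beside 32.2% of all genes. Pdia5 fell by 1.55 (SE 0.06, adjusted p = 4.52e-14) and Txndc5, the thioredoxin-domain isomerase, by 1.27 (SE 0.04, adjusted p = 1.45e-14), while the oxidase Ero1lb rose by 0.52 (SE 0.09, adjusted p = 3.83e-05). With 5-ASA, 3 were higher, beside 10.4% of all genes, and 3 lower, beside 7.38%. Ero1l, the main oxidase that reoxidizes protein disulfide isomerase, was higher by 0.42 (SE 0.06, adjusted p = 3.14e-05), and Ero1lb was lower at -0.31 (SE 0.08, adjusted p = 0.0118).

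Of 14 ERAD genes, the pathway Herpud1 belongs to, 10 were lower and 2 higher with OSCAR (median -0.22). Of all genes, 32.2% were lower and 32.7% higher. Selenos, which ties the extraction machinery to the membrane, fell by 0.95 (SE 0.05, adjusted p = 4.82e-12) and the mannosidase-like Edem1 by 0.61 (SE 0.04, adjusted p = 4.83e-10). Derl2 rose by 0.29 (SE 0.05), and Derl3, at 0.769 CPM in Control, by 1.35 (SE 0.26, adjusted p = 0.000179). With 5-ASA, 1 was higher (Derl1, 0.16, adjusted p = 0.0171) and 2 lower (Syvn1, -0.18, adjusted p = 0.0482, and Edem2, -0.17, adjusted p = 0.0305), beside 0.28 for Herpud1. These counts lie near the shares of all genes, 10.4% higher and 7.38% lower. The call of Derl1 was lost under 4 of 14 alternative fits and that of Syvn1 under 8.

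Genes of entry into the ER and exit from it were mostly lower with OSCAR, where 32.2% of all genes were lower and 32.7% higher. Of 18 translocation genes, 15 were lower (median -0.56), led by the translocon-associated Ssr1 at -1.22 (SE 0.05, adjusted p = 7.72e-14) and Ssr4 at -1.15 (SE 0.05, adjusted p = 3.61e-13), and Sec11c, a signal peptidase subunit, was higher at 0.21 (adjusted p = 0.0153). Of 15 genes of COPII export and retrieval, 12 were lower and 3 were not called (median -0.54), led by the KDEL receptors Kdelr2 at -1.11 (SE 0.05, adjusted p = 3.04e-13) and Kdelr3 at -0.97 (SE 0.05, adjusted p = 5.9e-12). With 5-ASA, 1 of the 18 was higher (Ssr4, 0.22, adjusted p = 0.00448) and 1 lower (Sec11c, -0.23, adjusted p = 0.0300), and 1 of the 15 was lower (Sec24a, a COPII coat subunit, -0.19, adjusted p = 0.00898). None of these 5-ASA counts exceeds the share of all genes, 10.4% higher and 7.38% lower. The 5-ASA call of Sec11c was lost under 7 of 14 alternative fits.

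Among 7 further sensors and their cleaving proteases, 5 were lower with OSCAR, beside 32.2% of all genes, and 1 higher, beside 32.7%. Creb3l1 (Oasis), the relative of Creb3l2 known from bone, fell by 0.75 (SE 0.06, adjusted p = 1.27e-09) and Eif2ak3 (Perk) by 0.63 (SE 0.05, adjusted p = 1.04e-08), while Mbtps2, the second protease that cuts Atf6, rose by 0.49 (SE 0.06, adjusted p = 4.97e-07). With 5-ASA, 4 were higher, beside 10.4% of all genes, and 3 were not called, with Creb3l1 at 0.42 (SE 0.06, adjusted p = 3.55e-05). Leaving out 1 culture at a time brought the 4 down to as few as 1 (without Ad-OSCAR replicate 1).

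In the Atf4 branch, 6 of 9 genes were higher with 5-ASA and 1 lower (median 0.28), beside 10.4% and 7.38% of all genes. Atf4 itself read -0.26 with OSCAR (SE 0.05, adjusted p = 0.00031) and 0.47 with 5-ASA (SE 0.05, adjusted p = 5.23e-06). Asns, asparagine synthetase, stood at 182 ± 8.44 CPM in Control, 92.6 ± 12.3 CPM in Ad-OSCAR and 189 ± 17.5 CPM with 5-ASA (SD, n = 3), log2 fold changes of -0.97 (SE 0.08, adjusted p = 3.49e-09) and 1.03 (SE 0.08, adjusted p = 7.94e-08). Trib3, a pseudokinase, fell by 1.27 with OSCAR (SE 0.07, adjusted p = 3.41e-11) and was higher by 0.82 with 5-ASA. Atf3 went the other way, up by 1.71 with OSCAR (SE 0.10, adjusted p = 3.93e-11) and at -0.85 with 5-ASA (SE 0.09, adjusted p = 2.57e-06). Cebpb rose by 0.83 with OSCAR (SE 0.15, adjusted p = 9.02e-05), with an SD of 59.1 CPM over the Ad-OSCAR cultures. The 4 genes higher with OSCAR, beside 32.7% of all genes, and the 5 lower, beside 32.2%, leave the list with no common direction there. Ddit3 (Chop), the death-linked factor of this branch, read -0.24 with OSCAR (adjusted p = 0.000591) and -0.10 with 5-ASA (adjusted p = 0.219).

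**Figure D3:**
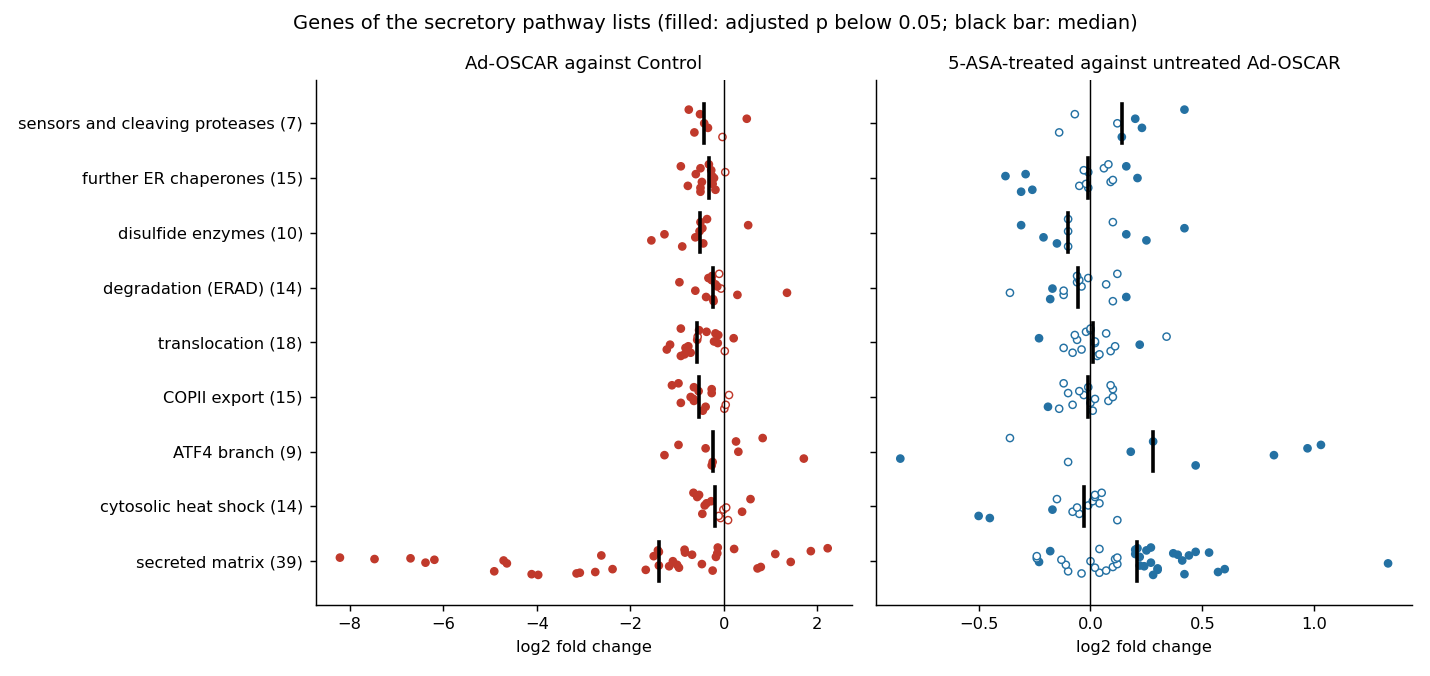
Log2 fold change of each gene of the pathway lists and of the secreted matrix list (number of genes tested in parentheses) in Ad-OSCAR against Control (left) and 5-ASA-treated against untreated Ad-OSCAR (right), on different horizontal scales, with filled points for an adjusted p below 0.05 and a black bar at the median. Medians lie left of 0 in every list on the left, from -0.19 to -1.39, and on the right only the sensors, the Atf4 branch and the secreted matrix have a median above 0.1.

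The secreted cargo was read from a list of 40 secreted matrix genes, also chosen with earlier results known, of which 39 were tested. With OSCAR, 32 were lower, beside 32.2% of all genes, and 7 higher, beside 32.7%, with a median of -1.39. Ucma fell by 8.21 (SE 0.11, adjusted p = 3.09e-20) and Matn3, a cartilage matrilin, fell by 7.47 (SE 0.16, adjusted p = 2.18e-17), while tenascin C (Tnc) rose by 2.22 (SE 0.04, adjusted p = 3.94e-18) and lubricin (Prg4) by 1.86 (SE 0.04, adjusted p = 9.8e-17). With 5-ASA 22 of the 39 were higher, beside 10.4% of all genes, and 2 lower, beside 7.38%, with a median of 0.21, Col14a1 at 1.33 (SE 0.34, adjusted p = 0.00952) from under 1 CPM and Vcan at -0.23 (SE 0.06, adjusted p = 0.00877).

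Summed TPM sets these genes on 1 scale with the 6 members whose proteins lie in the ER lumen (Hspa5, Hsp90b1, Dnajb9, Sdf2l1, Hyou1 and Pdia4). The 6 summed to 2543 ± 115 TPM in Control, 2083 ± 114 TPM in Ad-OSCAR and 1595 ± 34.9 TPM with 5-ASA (SD, n = 3), and the matrix list to 49066 ± 1519, 31015 ± 712 and 32660 ± 911 TPM (SD, n = 3). Chaperone transcripts per 100 matrix transcripts were 4.97, 5.51 and 5.08 in the Control cultures, 6.58, 6.49 and 7.08 in Ad-OSCAR and 4.90, 4.90 and 4.85 with 5-ASA. All 3 Ad-OSCAR cultures were above the other 6. With OSCAR the chaperone sum was lower 1.22-fold and the matrix sum 1.58-fold, and with 5-ASA the chaperone sum was lower 1.3-fold and the matrix sum higher 1.05-fold. The log2 difference of the ratio was 0.37 for OSCAR, -0.46 for 5-ASA and -0.08 for treated cells against Control (exact permutation p = 0.1 each, the smallest possible).

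The OSCAR part of that ratio rested on Col2a1, type II collagen, which went from 12071 ± 886 TPM in Control to 779 ± 63.3 TPM (SD, n = 3). Without Col2a1 the ratio was 6.87 ± 0.303 in Control and 6.89 ± 0.313 in Ad-OSCAR (SD, n = 3), a log2 difference of 0.00 (exact permutation p = 0.9), and 5.02 ± 0.0263 with 5-ASA, a log2 difference of -0.46 from untreated cells (exact permutation p = 0.1) and of -0.45 from Control. The fall of the ratio with 5-ASA was thus the same with and without Col2a1, and the rise with OSCAR was present only with it.

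**Figure D4:**
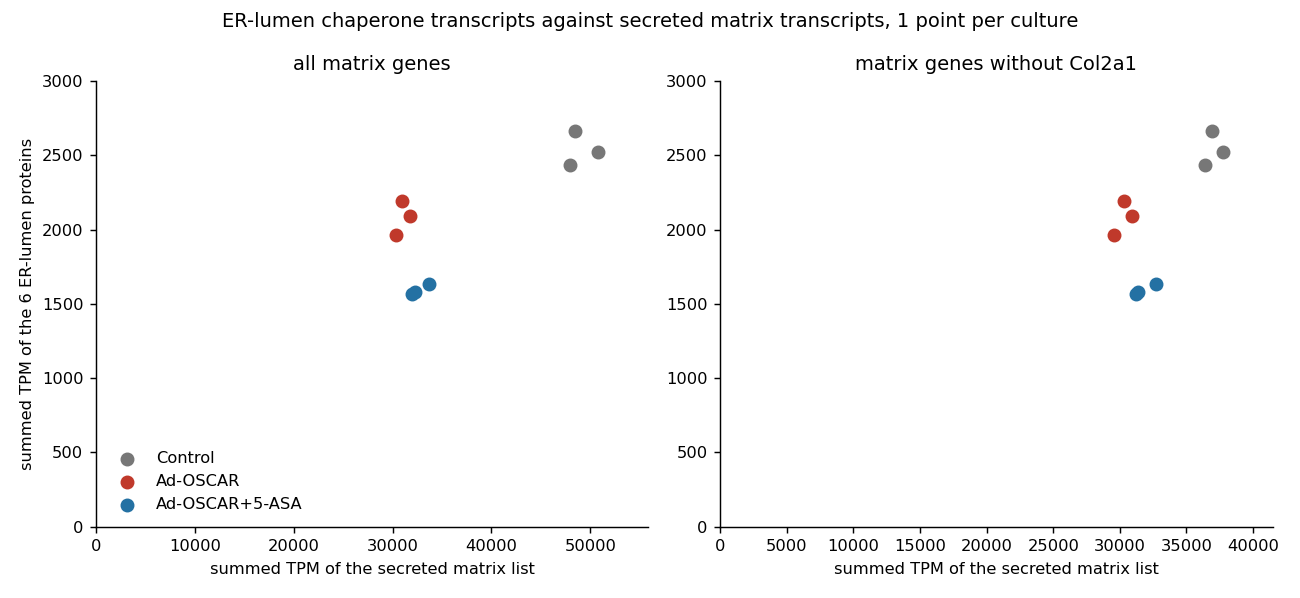
Summed TPM of the 6 ER-lumen members (vertical) against summed TPM of the secreted matrix list (horizontal), 1 point per culture, with all matrix genes (left) and without Col2a1 (right), on axes from 0. Control cultures lie at the upper right, Ad-OSCAR cultures at 1967 to 2194 TPM of chaperones and 5-ASA-treated cultures at 1568 to 1635 TPM at nearly the same matrix level.

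The genes outside the list whose centred log2 CPM over the 9 cultures lay closest to Hspa5, of 10783 compared, were Canx (distance 0.16), Cnot9 (0.17), Hpse (0.18), Trim37 (0.20) and Ddx39 (0.20), and the member Hsp90b1 was at 0.14. Closest to Dnajb9 were Zcchc9 (0.08), 2700049A03Rik (0.12), Cmas (0.13), Psma2 (0.13) and Polr2b (0.13). Among the other members, Hyou1 (0.35) and Pdia4 (0.45) lay nearer to Hspa5 than Xbp1 (0.59), Dnajb9 (0.62), Sdf2l1 (0.66), Creb3l2 (0.70), Herpud1 (0.81) and Atf6 (1.04). The distance grows with the size of a gene's changes as well as with their direction.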

How the data were processed

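RNA was sequenced by the authors from 9 cultures. Per the labels and the paper's methods, reads were trimmed with BBDuk, aligned to GRCm38 with STAR 2.7.1a and counted with RSEM 1.3.1. The study's reporting summary also gives RSEM 1.3.1 for raw counts but another RSEM version for TPM. The authors deposited estimated counts per gene without library scaling, non-whole for 8.97% to 10.1% of genes. The authors' deposited files also hold TPM, used for levels between genes, and FPKM, which were not used, and the transcript lengths. Of 55471 identifiers, 55230 were found in GENCODE M21 (GRCm38), which gave symbols and coordinates. Ddit3 has 2 identifiers there, and the one whose span is closest to RefSeq's was used.

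The 10 genes and the lists were chosen with earlier results of these data known. Estimated counts were rounded and tested with edgeR 4.0.16 in R 4.3.3 (TMM, filterByExpr, quasi-likelihood F test, 1 fit of all 9 cultures by group, Benjamini-Hochberg over 15362 genes). Total counts ran from 19733431 to 28192725, and the biological coefficient of variation was 5.11%. CPM are TMM-scaled, and SE was taken as log2 fold change over the square root of the F statistic. Sums and ratios were compared by two-sided exact permutation tests. Alternatives were RLE and upper-quartile normalization, TMM without matrix genes, DESeq2 1.42.0, limma 3.58.1 on log2(TPM + 1), other filters, fits of 2 groups, a replicate block, each culture left out, and the study's thresholds. Named genes were all members, in each list the 2 called genes with the largest rise and the 2 with the largest fall with OSCAR and 1 each way with 5-ASA (mean of at least 1 CPM), and the 5 genes most like Hspa5 and Dnajb9 (mean of at least 5 CPM). Any others, and the ratio of Herpud1 to Hspa5, were chosen after their values were seen. Methods were tested on simulated counts. Figures were made with Python 3.11.15 and matplotlib 3.10.9.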

Additional observations from a re-analysis of the deposited data

How the results depend on the processing

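Over 18 alternatives per gene and comparison, every call of the 10 genes in Ad-OSCAR against Control and in treated cells against Control kept its direction and its side of the threshold. In 5-ASA-treated against untreated Ad-OSCAR this held for Hspa5, Hsp90b1, Sdf2l1 and Pdia4, while Dnajb9, Herpud1 and Hyou1 changed side as given above. Xbp1, never called there, went from 0.01 to 0.00 with upper-quartile normalization (just below 0 before rounding), to -0.13 on log2 TPM, and to between -0.01 and 0.02 when 1 culture was left out (-0.01 without Ad-OSCAR replicate 3 and without treated replicate 2). On log2 TPM, Atf6 read -0.05 and Creb3l2 0.00 (also just below 0), also uncalled, 0 members were higher with 5-ASA, and the members' medians were -0.36 for OSCAR, -0.21 for 5-ASA and -0.67 for treated cells against Control. With the study's thresholds, 0 members were higher and 0 lower for OSCAR and for 5-ASA, and 0 higher and 5 lower against Control. Without Col2a1 the log2 difference of the chaperone to matrix ratio was 0.00 for OSCAR and -0.45 against Control. The causes were not tested.

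Leaving out 1 culture at a time moved the members' median from -0.42 to -0.38 for OSCAR, from -0.12 to -0.08 for 5-ASA and from -0.62 to -0.55 against Control, and the number of pathway genes higher with 5-ASA from 11 to 17. Of 44 calls of genes named from the lists by the rule above, 36 held under all 14 alternatives tried for them. Those lost under 1 or more were, with 5-ASA, Sil1, Ero1lb, Derl1, Syvn1 (lost under 8), Sec11c (under 7), Col14a1 (without Ad-OSCAR replicate 1) and Vcan, and with OSCAR Sec11c (under DESeq2 and without Control or Ad-OSCAR replicate 1). The 44 leave out, among others, the 5-ASA calls of Calr, Canx, Manf, Edem2, Lman1 and Trib3.

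Same-numbered cultures did not deviate together (correlations from -0.0724 to 0.0402 over 9 pairs), so the numbers were not taken as pairs. With the replicate block, 3 members were lower with 5-ASA, Dnajb9 missing the threshold (-0.18, adjusted p = 0.0551), and no other call of a member changed.

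With 3 cultures a group, the exact tests of sums cannot go below 0.1, and gene-level counts show neither splicing nor protein.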

Other observations

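Heat shock genes answer to unfolded protein outside the ER, mostly in the cytosol, and the list read here also held the mitochondrial chaperonins Hspd1 and Hspe1. Of 14 tested, 7 were lower with OSCAR, beside 32.2% of all genes, and 2 higher, beside 32.7% (median -0.19), Hspe1 at -0.65 (SE 0.06, adjusted p = 1.6e-08 by edgeR), Bag3 at -0.57, Hspb8 at 0.57 and Hsph1 at 0.39. With 5-ASA 3 were lower, beside 7.38% of all genes, with Hspa1b at -0.50 (SE 0.10, adjusted p = 0.00165), a value that is uncertain because Hspa1a is a near-identical copy between which reads are divided.

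Mean transcript length, which reflects the mix of isoforms counted, varied by at most 6.59% of its mean over the 9 cultures (Xbp1, 1773 to 1895 bases). For Sdf2l1 it was 1108 bases in every culture, and the groups overlapped for Xbp1 and Herpud1. Hspa5 ran from 2162 to 2187 bases in Control and from 2196 to 2231 bases in Ad-OSCAR, without overlap. Hyou1 ran from 4122 to 4251 bases in Ad-OSCAR and from 4298 to 4342 bases with 5-ASA, also without overlap.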
